A study of Mus musculus with 18 samples.

Results

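The mTOR and PI3K signalling pathway was followed at the transcript level through 9 genes, Mtor, Rptor, Rictor, Tsc1, Tsc2, Rheb, Pik3cb, Eif4ebp2 and Rps6kb1, chosen by name from the 37310 genes of a count table of cultured mouse cortical neurons. All 9 had enough reads to be tested, among 15433 genes that did. The neurons carried Fmr1 as wild type (WT) or lacked it as knockout (KO), its product FMRP being an RNA-binding repressor of translation, and at 7 days in culture they received 24 h of vehicle (DMSO) or JQ1, a small molecule that displaces BET bromodomain proteins from acetylated chromatin. The 12 libraries formed 4 groups of 3, 1 for each pairing of a genotype with a treatment. The labels name no mouse strain, sex, JQ1 dose or knockout allele beyond the loss of Fmr1, nor do they tie the numbered replicates to distinct cultures or mice, and p-values therefore measure only the spread between these samples, which may be technical. A further drug arm of the study, THZ1, was not analysed here.

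PI3K makes the membrane lipid PIP3, which recruits the kinases PDK1 and AKT. AKT phosphorylates and inhibits TSC2, which with TSC1 forms a complex that switches off the small GTPase RHEB, and RHEB bound to GTP activates mTOR complex 1. In that complex mTOR works with raptor (Rptor) and phosphorylates the S6 kinase (Rps6kb1) and the 4E-binding proteins, of which the Eif4ebp2 product is the main form in brain, whereas mTOR with rictor (Rictor) forms complex 2, which phosphorylates AKT. In neurons the pathway sets protein synthesis near synapses, and it has been studied in Fmr1 KO mice because the mRNA of the PI3K catalytic subunit p110-beta (Pik3cb) is a described FMRP target. RNA counts carry no information on phosphorylation or protein amounts.

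Pik3cb and Tsc2 had the largest responses to JQ1 and Tsc1 had an estimate near 0, so the promoters of these 3 genes are shown, with that of Rheb, whose window alone among the 9 held an E-box. Each is the RefSeq window of the GRCm38.p6 assembly from 250 bases before to 50 after the annotated start, 5′ to 3′ on the strand of the gene, and capitals mark matches to the motifs searched on both strands: ETS (CCGGAAG), SP (GGGCGG) and E-box (CACGTG). The Pik3cb window (chr9:99140162-99140461, minus strand) has 4 SP matches, the Tsc2 window (chr17:24632578-24632877, minus strand) a pair of ETS matches beside the start, the Rheb window (chr5:24842312-24842611, minus strand) the E-box and 1 SP match, and the Tsc1 window (chr2:28640983-28641282, plus strand) none.
Pik3cb: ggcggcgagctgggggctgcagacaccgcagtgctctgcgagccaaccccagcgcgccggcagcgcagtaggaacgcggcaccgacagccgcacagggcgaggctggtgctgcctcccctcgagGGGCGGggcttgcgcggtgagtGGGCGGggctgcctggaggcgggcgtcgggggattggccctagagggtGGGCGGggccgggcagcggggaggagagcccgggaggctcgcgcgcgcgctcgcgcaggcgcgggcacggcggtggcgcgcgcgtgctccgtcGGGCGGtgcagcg
Tsc2: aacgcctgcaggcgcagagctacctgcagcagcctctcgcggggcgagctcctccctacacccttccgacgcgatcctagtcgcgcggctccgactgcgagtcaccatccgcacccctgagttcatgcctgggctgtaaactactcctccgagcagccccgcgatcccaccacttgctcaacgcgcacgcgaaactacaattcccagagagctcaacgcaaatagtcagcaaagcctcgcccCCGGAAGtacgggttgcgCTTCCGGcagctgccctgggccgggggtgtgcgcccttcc
Tsc1: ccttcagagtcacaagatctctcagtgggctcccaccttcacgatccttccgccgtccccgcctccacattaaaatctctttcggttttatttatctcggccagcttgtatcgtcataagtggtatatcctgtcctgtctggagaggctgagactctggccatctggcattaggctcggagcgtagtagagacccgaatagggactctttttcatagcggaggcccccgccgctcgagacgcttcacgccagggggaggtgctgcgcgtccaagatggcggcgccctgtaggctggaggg
Rheb: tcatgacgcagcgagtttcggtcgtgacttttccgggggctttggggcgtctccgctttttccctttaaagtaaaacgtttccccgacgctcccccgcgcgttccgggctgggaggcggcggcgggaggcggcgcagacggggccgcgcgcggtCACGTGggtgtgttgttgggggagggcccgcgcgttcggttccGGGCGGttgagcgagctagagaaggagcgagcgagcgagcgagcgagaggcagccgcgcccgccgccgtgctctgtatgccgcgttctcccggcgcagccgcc

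All 9 genes had a window in the RefSeq table. ETS matches stood in 3 of the 9 (Mtor, Tsc2 and Eif4ebp2) and in 8.86% of all 32851 windows of the same length. SP matches stood in 5 (Mtor, Rictor, Rheb, Pik3cb and Eif4ebp2) and in 35.7% of all windows. The E-box stood in 1 and in 7.15% of all. The longer TFEB-type E-box (TCACGTGA), the FOXO motif (TGTTTAC), the CREB motif (TGACGTCA) and the TATA box (TATAAA) stood in 0 of the 9, against 0.974%, 3.65%, 1.79% and 13.6% of all windows. The TFEB-type motif contains the E-box, so their matches overlap. The median GC content was 65% in the 9 windows and 52.7% in all windows, and the median number of CpG dinucleotides was 29 and 7. A match is a run of letters, not a measured binding site. Another gene, Nthl1, of a DNA repair enzyme, starts inside the Tsc2 window. It was -0.13 on the log2 scale under JQ1 in WT (edgeR adjusted p = 0.479) and fell by 0.47 in KO (adjusted p = 0.0108), while Tsc2 rose in both genotypes. For KO over WT in DMSO, Nthl1 was 0.31 (adjusted p = 0.153), not called, and Tsc2 was 0.25 (adjusted p = 0.0046).

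Library totals ran from 21643592 to 134110850 gene counts, and the lowest count of any of the 9 genes in any library was 943. CPM values are gene counts scaled to a common library size. Fmr1 was at 119 to 124 CPM in WT and 21.5 to 29.4 in KO in DMSO, and at 135 to 154 and 26.0 to 34.6 in JQ1. Both KO replicate 3 libraries stood apart from the other 10 in sex-linked genes, with Xist at 4.29 and 4.34 CPM against 230.5 to 441 and Ddx3y at 54.6 to 76.2 against 28.1 to 46.1, so the values of the 9 genes that involve KO libraries are also given without them. Of the neuron markers, 7 of 8 matched a row of the table, and they summed to 5634 to 6960 CPM. Astrocyte markers were present, at 306 to 808 CPM over 8 genes, and microglial markers were low, at 6.48 to 11.7 CPM over 7 genes, with P2ry12 and Tmem119 at or near 0. Log2 changes are stated relative to the middle of all genes. Scaling to the ERCC spike-in RNA, which made up 0.118% to 0.348% of gene and spike-in counts together, moved the median of all genes by -0.81 for KO over WT in DMSO, -0.12 for KO over WT in JQ1, -0.63 for JQ1 over DMSO in WT and 0.07 for JQ1 over DMSO in KO. The spike-in share differed within groups, from 0.118% to 0.173% in WT and 0.168% to 0.348% in KO in DMSO. In JQ1 it ran from 0.173% to 0.261% in WT and 0.193% to 0.243% in KO. Calls lost under this scaling carry that spread between replicates as well as the shift, and their parts were not tested.

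**Figure D1:**
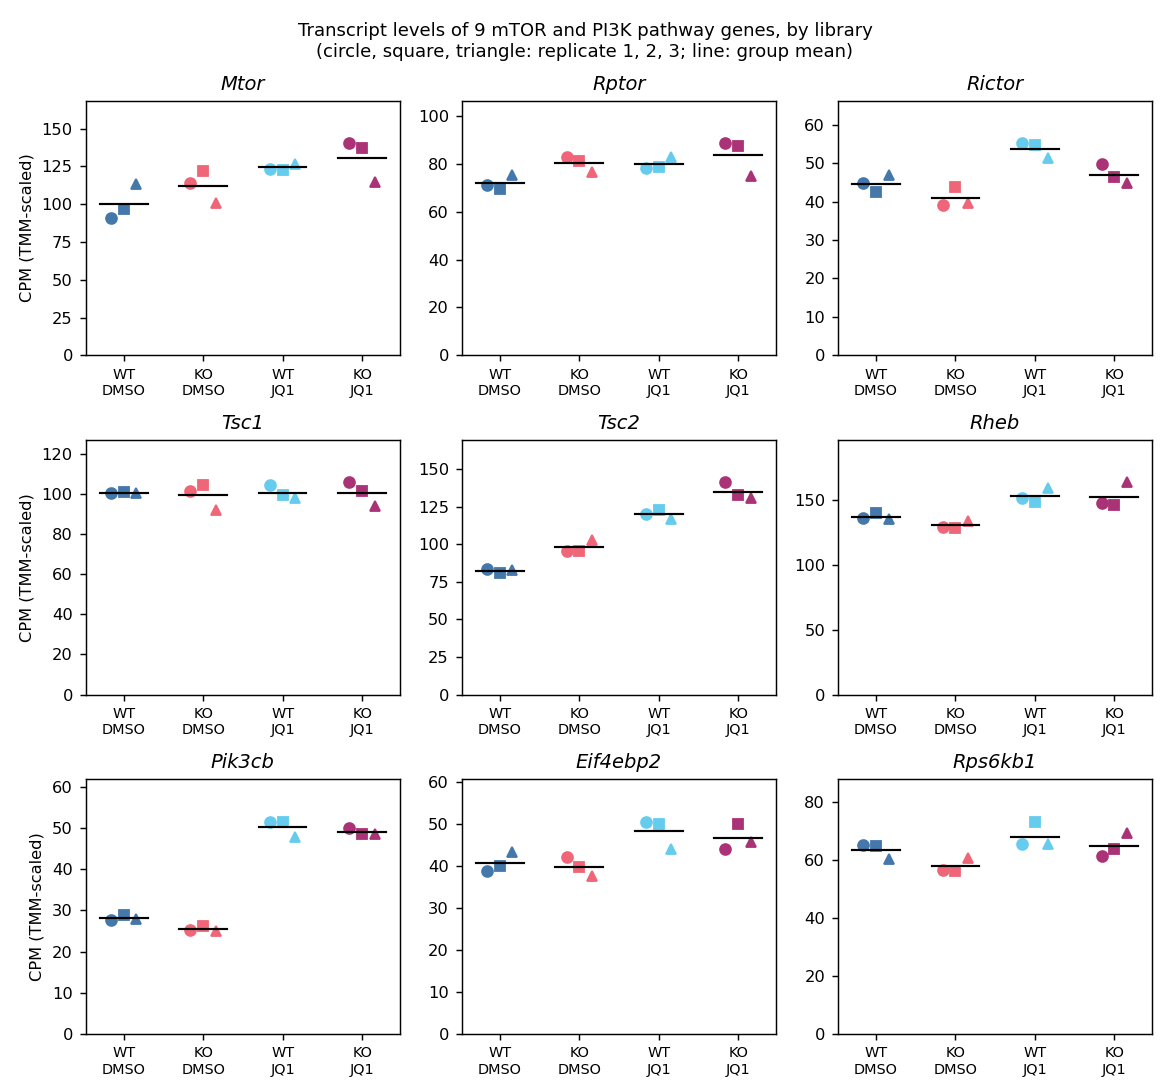
Normalised read counts (CPM, y axis, from 0) of the 9 genes in each of the 12 libraries, by genotype and treatment on the x axis, with a line at each group mean. Pik3cb lies at 25.0 to 28.8 CPM in DMSO and 47.9 to 51.6 in JQ1, and Tsc1 lies at 92.2 to 106 CPM throughout.

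JQ1 was compared with DMSO in each genotype to ask which transcripts move when BET proteins are displaced. Of the 9 genes, 6 rose in WT (Pik3cb, Tsc2, Mtor, Rictor, Eif4ebp2 and Rheb) and 7 in KO (the same 6 and Rps6kb1), and 0 fell in either. A gene was called at an adjusted p under 0.05 (edgeR, quasi-likelihood F test, Benjamini-Hochberg over all 15433 genes), and by that rule the test called 25.9% of all genes higher and 29.3% lower in WT, and 27.7% higher and 29.4% lower in KO. At an unadjusted p under 0.05, 7 of the 9 were higher and 0 lower in each genotype, where 28.6% of all genes were higher and 31.4% lower in WT and 30.2% and 31.3% in KO. DESeq2 and limma-voom also called 0 lower. The median log2 change of the 9 was 0.25 in WT and 0.22 in KO, against -0.0043 and 0.0014 over all genes tested. The JQ1 and DMSO libraries did not overlap for 8 of the 9 in WT and 6 in KO, where 62.6% and 60.7% of all genes did not. Under spike-in scaling, 0 of the 9 were called in WT, where 7 of the 8 positive estimates turned negative and that of Pik3cb alone stayed positive. In KO 1 was called, Pik3cb, and no estimate changed sign. With both KO replicate 3 libraries left out, 6 of the 9 rose in KO and Rps6kb1 was the one lost. The log2 values were then 0.94 for Pik3cb, 0.52 for Tsc2, 0.23 for Mtor, 0.21 for Rictor and for Eif4ebp2, 0.19 for Rheb, 0.15 for Rps6kb1, 0.10 for Rptor and 0.01 for Tsc1.

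Pik3cb, the p110-beta catalytic subunit of PI3K, responded most among the 9. In DMSO it was at 27.6, 28.8 and 28.0 CPM in the WT libraries, in replicate order, and at 25.2, 26.3 and 25.0 in KO. In JQ1 it was at 51.6, 51.6 and 47.9 CPM in WT and 50.1, 48.7 and 48.6 in KO. Every JQ1 library stood above every DMSO library. The rise was 0.84 log2 units (SE 0.0478, adjusted p = 1.04e-08) in WT, or 1.79-fold, and 0.95 log2 units (SE 0.0471, adjusted p = 3.53e-09) in KO, or 1.93-fold. Under spike-in scaling the WT value was 0.21 (adjusted p = 0.531) and the KO value 0.999 (adjusted p = 0.0155).

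The TSC complex is the brake on RHEB, and of its 2 large subunits Tsc2 was called under JQ1 and Tsc1 was not. Tsc2, the subunit with the GTPase-activating domain, was at 83.6, 80.9 and 82.7 CPM in WT and 95.6, 95.3 and 103 in KO in DMSO. It was at 120.3, 123 and 117 CPM in WT and 141, 133 and 131 in KO in JQ1. All 6 JQ1 libraries stood above all 6 DMSO libraries, and within each treatment all KO libraries stood above all WT libraries. Tsc2 rose by 0.54 log2 units (SE 0.0466, adjusted p = 4.12e-07) in WT, where spike-in scaling gave -0.09 (adjusted p = 0.794), and by 0.46 log2 units (SE 0.0459, adjusted p = 1.41e-06) in KO. Tsc1, the scaffold that stabilises TSC2, was at 101, 101 and 101 CPM in WT and 102, 105 and 92.2 in KO in DMSO. With JQ1 the Tsc1 values were 105, 99.7 and 97.9 CPM in WT and 106, 102 and 94.1 in KO. These groups overlapped in every comparison. Its log2 change under JQ1 was -0.0010 in WT (95% interval -0.12 to 0.12) and 0.02 in KO (-0.10 to 0.13), and those intervals do not reach the Tsc2 values.

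Rheb, the GTPase that TSC2 switches off, was at 137, 139.9 and 136 CPM in WT and 129.5, 129 and 134 in KO in DMSO. Under JQ1 Rheb stood at 152, 149 and 159.6 CPM in WT and 148, 146 and 164 in KO. The lowest JQ1 library was above the highest DMSO library in both genotypes. It rose by 0.16 log2 units (SE 0.0493, adjusted p = 0.0141) in WT, where spike-in scaling gave -0.49 (adjusted p = 0.174), and by 0.22 log2 units (SE 0.0491, adjusted p = 0.00143) in KO.

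Of the genes of the mTOR complexes, the kinase gene Mtor was at 91.2, 97.0 and 113 CPM in WT and 114, 122 and 101 in KO in DMSO. The JQ1 libraries had Mtor at 123, 123 and 127 CPM in WT and 140.4, 137 and 115 in KO. The WT groups were apart, and in KO they overlapped, both replicate 3 libraries being the lowest of their group. Mtor rose by 0.31 log2 units (SE 0.0892, adjusted p = 0.00916) in WT, where spike-in scaling gave -0.31 (adjusted p = 0.37). In KO it rose by 0.22 log2 units (SE 0.0883, adjusted p = 0.0458), a call that was lost in 11 of the 20 alternatives other than spike-in scaling, where the adjusted p ran from 0.0088 to 0.226. Among them were the fits without KO_DMSO replicate 1 or 3 (adjusted p = 0.0926 and 0.226), KO_JQ1 replicate 1 or 2 (0.143 for each), WT_DMSO replicate 2 (0.0536) or WT_JQ1 replicate 1, 2 or 3 (0.0584, 0.0568 and 0.053). Replicate numbers paired the KO libraries, but not WT with KO in DMSO (same-number correlations -0.18 to 0.0112). A block for the number, with 1 effect shared by both genotypes, gave the KO value an adjusted p = 0.056. That block is not a test of the pairing within KO, and no fit paired the libraries within a genotype. For Mtor in KO, the JQ1 library of each number stood above the DMSO library of that number.

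Rictor, which defines complex 2, was at 44.8, 42.4 and 46.9 CPM in WT and 39.2, 43.9 and 39.6 in KO in DMSO. Rictor in JQ1 was at 55.2, 54.7 and 51.4 CPM in WT and 49.8, 46.3 and 44.9 in KO. JQ1 libraries stood above DMSO libraries within each genotype. It rose by 0.27 log2 units (SE 0.0596, adjusted p = 0.00159) in WT, where spike-in scaling gave -0.36 (adjusted p = 0.301), and by 0.20 log2 units (SE 0.0591, adjusted p = 0.00994) in KO, a call lost without KO_DMSO replicate 1 or 3 (adjusted p = 0.0703 and 0.0558). Rptor, which defines complex 1, was at 71.3, 69.7 and 75.4 CPM in WT and 82.9, 81.2 and 76.7 in KO in DMSO. Its JQ1 values were 78.4, 78.6 and 82.9 CPM in WT and 88.7, 87.4 and 74.9 in KO. In WT the lowest JQ1 library was above the highest DMSO library, and in KO the groups overlapped. Rptor was 0.15 log2 units (SE 0.0613, adjusted p = 0.0554) in WT and 0.06 log2 units (SE 0.0604, adjusted p = 0.404) in KO, neither called, and the WT value was called in 12 of the 20 alternatives, while spike-in scaling gave -0.49 in WT.

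Downstream of mTOR complex 1, Eif4ebp2, a repressor of cap-dependent translation, was at 38.9, 40.0 and 43.3 CPM in WT and 42.1, 39.8 and 37.7 in KO in DMSO. Eif4ebp2 stood in JQ1 at 50.6, 50.1 and 44.1 CPM in WT and 44.1, 50.01 and 45.7 in KO. JQ1 libraries stood above DMSO libraries in both genotypes, narrowly so in WT replicate 3 in JQ1. It rose by 0.25 log2 units (SE 0.0678, adjusted p = 0.00594) in WT, where spike-in scaling gave -0.37 (adjusted p = 0.288), and by 0.23 log2 units (SE 0.0669, adjusted p = 0.00919) in KO, a call lost without KO_DMSO replicate 3 or KO_JQ1 replicate 2 (adjusted p = 0.0583 and 0.0591). Rps6kb1, the S6 kinase gene, was at 65.2, 64.9 and 60.5 CPM in WT and 56.5, 56.2 and 60.9 in KO in DMSO. With JQ1, Rps6kb1 was at 65.7, 73.4 and 65.6 CPM in WT and 61.4, 63.8 and 69.6 in KO. Within each genotype the JQ1 libraries were above the DMSO libraries, by less than 1 CPM between the nearest libraries. It was 0.11 log2 units (SE 0.0604, adjusted p = 0.152) in WT, not called (-0.53 under spike-in scaling), and rose by 0.16 log2 units (SE 0.0599, adjusted p = 0.0291) in KO, a call lost in 8 of the 20 alternatives. It was lost without KO_DMSO replicate 1 or 2 (adjusted p = 0.131 and 0.135), WT_JQ1 replicate 1 (0.0511), KO_JQ1 replicate 3 (0.122) or both KO replicate 3 libraries (0.0571).

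**Figure D2:**
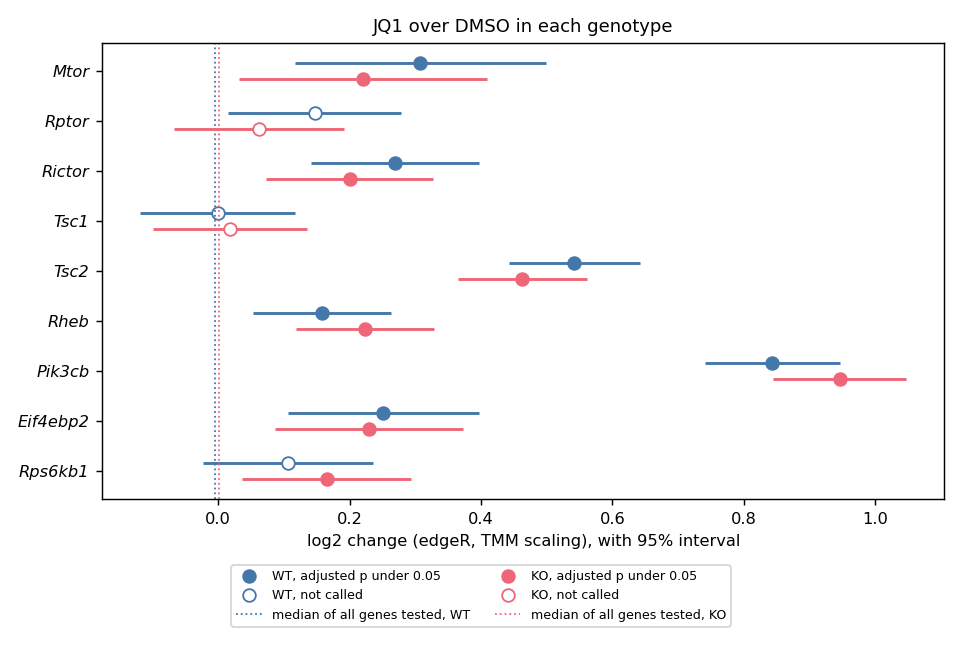
Log2 change of JQ1 over DMSO (x axis) with its 95% interval for the 9 genes (y axis) in WT and KO, filled where the adjusted p was under 0.05, with dotted lines at the median of all genes tested. Pik3cb (0.84 and 0.95) and Tsc2 (0.54 and 0.46) lie farthest right and Tsc1 lies near 0, under TMM scaling (spike-in scaling lowers all WT values by about the shift of -0.63).

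The genotype difference of the JQ1 response was tested for each gene in the same fit. That fit had no term for replicate number, so spread shared by same-number DMSO and JQ1 libraries stayed in its error. The difference passed for 0 of the 9 and for 0% of all genes in either direction, also with the replicate block. At an unadjusted p under 0.05 it held for 0 of the 9 and 355 of all 15433 genes (1.27% higher and 1.03% lower), and DESeq2 and limma-voom called 0. The largest estimate among the 9 was that of Pik3cb, whose response was 0.10 higher in KO (95% interval -0.04 to 0.25), followed by Mtor at -0.09 (-0.36 to 0.18) and Rptor at -0.09 (-0.27 to 0.10). For Tsc2 it was -0.08 (-0.22 to 0.06). With both KO replicate 3 libraries left out the 9 estimates ran from -0.07 for Mtor to 0.09 for Pik3cb. Spike-in scaling made all 9 positive, from 0.57 for Mtor to 0.79 for Pik3cb, around a shift of 0.69 for the median of all genes, and called 0. All 9 intervals include 0, and the missed threshold does not show that the genotypes responded alike.

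Astrocyte markers also moved with JQ1: 5 of 8 fell in WT and 4 in KO, and their summed level was 676 to 808 CPM in DMSO and 491 to 659.5 in JQ1 in WT. In KO it was 472 to 637 CPM in DMSO and 306 to 501 in JQ1. Neuron markers had 2 higher and 4 lower in WT and 3 higher and 4 lower in KO. Fibroblast and vascular markers, of which 7 of 8 were tested, had 0 higher and 4 lower in each genotype. Their sums were 28.5 to 36.7 CPM in DMSO and 15.9 to 21.0 in JQ1 in WT, and 12.5 to 17.3 and 8.89 to 11.3 in KO. Oligodendrocyte lineage markers had 3 of 7 lower in each genotype and 1 higher in WT. Microglial markers, of which 5 of 7 were tested, had 2 lower in WT and 3 in KO. Progenitor markers had 2 of 10 higher and 1 lower in WT and 3 higher and 1 lower in KO. Of 12 inhibitory neuron markers 2 were higher and 2 lower in WT and 1 and 3 in KO, and of 10 excitatory neuron markers 2 were higher and 3 lower in each genotype. The part of cell composition in the responses of the 9 genes was not tested, and in bulk RNA fewer cells of a type and less RNA per cell cannot be told apart.

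KO was compared with WT in each treatment to ask what the loss of FMRP changes. Tsc2 was the 1 gene of the 9 that rose in KO, in DMSO and in JQ1, and 0 of the 9 fell. In DMSO 7.21% of all genes were called higher and 7.76% lower, and in JQ1 4.85% and 4.13%. At an unadjusted p under 0.05, 2 of the 9 were higher and 2 lower in DMSO (14.3% and 17.3% of all genes), and 1 was higher and 1 lower in JQ1 (13.2% and 13.1% of all genes). DESeq2 and limma-voom called 0 of the 9 lower in DMSO and 1, Rictor, lower in JQ1. The median log2 change of the 9 was -0.03 in DMSO and -0.0068 in JQ1, against -0.01 and -0.0045 over all genes. Libraries of the genotypes did not overlap for 4 of the 9 in DMSO (37.6% of all genes) and for 2 in JQ1 (27% of all genes).

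The Tsc2 level was 82.4 ± 1.39 CPM in WT and 98.0 ± 4.47 in KO in DMSO (mean ± SD, n = 3 each), a rise of 0.25 log2 units (SE 0.0464, adjusted p = 0.0046). Without both KO replicate 3 libraries it was 0.21 (adjusted p = 0.00744), and spike-in scaling reversed it to -0.56 (adjusted p = 0.0792). In JQ1 the level was 119.9 ± 3.01 CPM in WT and 135 ± 5.43 in KO, a rise of 0.17 log2 units (SE 0.0459, adjusted p = 0.0353). That call was lost in 10 of the 20 alternatives other than spike-in scaling, and spike-in scaling gave 0.05. It was lost without WT_JQ1 replicate 1, 2 or 3 (adjusted p = 0.12, 0.0677 and 0.0818), KO_JQ1 replicate 1 or 2 (0.139 and 0.064), WT_DMSO replicate 2 or 3 (0.0512 and 0.0517) or KO_DMSO replicate 1 or 2 (0.05004 and 0.0546), and in a fit of the 6 JQ1 libraries alone (0.0805). It was kept without both KO replicate 3 libraries (0.19, adjusted p = 0.0131). The authors' deposited table gives Tsc2 a log2 change of 0.25 with an adjusted p = 8.35e-05 for KO over WT.

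Pik3cb was lower in all 3 KO libraries than in any WT library in DMSO, at -0.14 log2 units (SE 0.0482, adjusted p = 0.0623), and was not called. In JQ1 its genotypes overlapped, at -0.04 (95% interval -0.14 to 0.06). Rptor was higher in all 3 KO libraries in DMSO, at 0.15 log2 units (SE 0.0609, adjusted p = 0.0993), not called here, while the authors' deposited table gives it 0.16 with an adjusted p = 0.0263. Without both KO replicate 3 libraries Rptor was called (0.19, adjusted p = 0.0161), and spike-in scaling reversed it (-0.65, adjusted p = 0.045). Mtor was 0.16 log2 units (SE 0.0889, adjusted p = 0.231) in DMSO with overlapping groups, and 0.23 (adjusted p = 0.0416) without both of those libraries.

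Rictor was lower in KO in both treatments without a call, at -0.13 log2 units (SE 0.0596, adjusted p = 0.159) in DMSO and -0.20 log2 units (SE 0.0591, adjusted p = 0.0528) in JQ1, and only in JQ1 did its groups not overlap. With both KO replicate 3 libraries left out it was -0.10 in DMSO and -0.17 in JQ1 (adjusted p = 0.273 and 0.0956). It passed in JQ1 with DESeq2, limma-voom and a stricter minimum count. Rheb was lower in all 3 KO libraries in DMSO, at -0.07 log2 units (SE 0.0493, adjusted p = 0.344), and not in JQ1. Rps6kb1, Eif4ebp2 and Tsc1 were not called in either treatment, with log2 values of -0.14, -0.03 and -0.02 in DMSO and -0.08, -0.05 and -0.0024 in JQ1. With both KO replicate 3 libraries left out, the DMSO values were -0.13 for Pik3cb, -0.09 for Rheb, -0.17 for Rps6kb1, 0.0070 for Eif4ebp2 and 0.03 for Tsc1, none of them called. The JQ1 values were then 0.16 for Mtor, 0.14 for Rptor (adjusted p = 0.0547), -0.13 for Rps6kb1, -0.06 for Rheb, -0.04 for Eif4ebp2, -0.03 for Pik3cb and 0.04 for Tsc1, none of them called. Under spike-in scaling the positive Mtor estimate in DMSO also turned negative (-0.61), as did those of Mtor (-0.04) and Rptor (-0.05) in JQ1. The JQ1 and genotype comparisons share libraries, so the gene values in them are not independent.

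**Figure D3:**
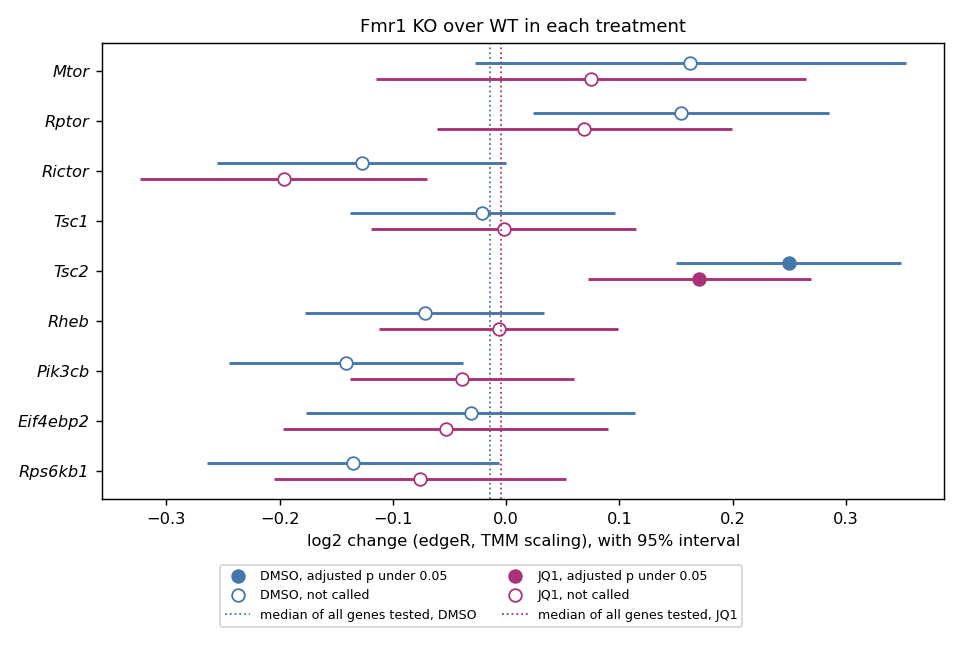
Log2 change of KO over WT (x axis) with its 95% interval for the 9 genes (y axis) in DMSO and in JQ1, filled where the adjusted p was under 0.05, with dotted lines at the median of all genes tested. Tsc2 alone is filled, at 0.25 in DMSO (-0.56 under spike-in scaling) and 0.17 in JQ1.

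Markers of neurons and of other cell types moved with genotype beside these values. Of the 7 neuron markers tested, 3 were higher in KO in DMSO and 0 lower, with sums of 6584 to 6960 CPM against 5932 to 6372 in WT. In DMSO, inhibitory neuron markers were higher in KO in 8 of 12 genes, with sums of 654 to 720.4 CPM against 462 to 581 in WT. Progenitor markers were lower in 4 of 10, with sums of 395 to 473 CPM against 486.5 to 529, with 0 higher. Fibroblast and vascular markers had 1 of the 7 tested higher and 2 lower, with a median log2 change of -0.134. Most of their sum was Dcn, at a mean of 28 CPM in WT and 10.9 in KO, while Col1a1, Col1a2 and Col3a1 were under 1 CPM in both and had the higher means in KO. Of 10 excitatory neuron markers 4 were higher and 3 lower, and astrocyte markers were lower in 2 of 8. In JQ1, inhibitory neuron markers were higher in 4 of 12 and progenitor markers lower in 4 of 10, and neuron markers had 1 higher and 0 lower. Their part in the Tsc2 difference was not tested.

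Levels of different genes were set side by side only per length, as CPM per kb of annotated exon (GENCODE M21, GRCm38). In WT in DMSO, Rheb was highest at 17.8 ± 0.283 CPM per kb (SD, n = 3), followed by Mtor (9.93 ± 1.12), Tsc2 (8.57 ± 0.144), Tsc1 (8.53 ± 0.0253), Rps6kb1 (7.34 ± 0.305), Eif4ebp2 (7.04 ± 0.39), Rptor (5.35 ± 0.22), Pik3cb (3.91 ± 0.0832) and Rictor (2.64 ± 0.132). The libraries of Tsc2 overlapped those of Tsc1, and those of Rps6kb1 overlapped those of Eif4ebp2, and the other neighbours in this order did not overlap. Per kb of exon, Tsc2 and Tsc1 were level in this group and stood at 14.04 ± 0.564 and 8.50 ± 0.508 CPM per kb in KO in JQ1. The order depended on the length used, and per kb of coding sequence Eif4ebp2 came 2nd and Mtor 7th. Per kb of coding sequence Tsc2 stood below Tsc1, at 15.2 against 29.0 CPM in WT in DMSO and 24.9 against 28.9 in KO in JQ1.

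Reads of overlapping genes bear on a few of these counts, since the sources used here do not say whether reads were counted by strand. Tsc2 shares 693 exon bases, 7.2% of its exon length, with Pkd1, the polycystin gene on the opposite strand. Pkd1 itself was 0.23 under JQ1 in WT (adjusted p = 0.0894) and 0.18 in KO (adjusted p = 0.184), below the Tsc2 values of 0.54 and 0.46. For KO over WT in DMSO, Pkd1 was 0.19 (edgeR adjusted p = 0.256), not called, beside 0.25 for Tsc2. The part of Pkd1 reads in the Tsc2 difference was not tested. Rps6kb1 shares 155 bases (1.79%) with Rnft1, which under JQ1 was 0.28 in WT and 0.50 in KO. For KO over WT in DMSO, Rnft1 was -0.20 and Rps6kb1 -0.14. Rptor shares 84 bases (0.62%) with an antisense gene, Rptoros.

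Another 117 genes of the pathway were listed by role, of which 114 were tested. Under JQ1, 49 of the 114 rose and 19 fell in WT, and 49 rose and 20 fell in KO, with medians of 0.11 and 0.10. The shares among all genes were 25.9% and 29.3%, and 27.7% and 29.4%. These lists were set up with earlier results of these data known, and their counts describe the lists only. In WT, spike-in scaling would lower the values below by about 0.63, and it turned those of Mlst8, Pik3r3, Inpp4a, Pdpk1, Fgfr1, Eef2 and Foxo3 negative. Of the 21 genes named below for their JQ1 response, not counting Pik3r5 and Pik3c2b, 8 kept their call under spike-in scaling in WT. These were Deptor, Eif4ebp1, Gab2, Inpp4b, Prr5, Rhebl1, Rragd and Tbc1d7, all of which fell. None of the named genes that rose kept its call in WT. In KO 4 of the 21 kept their call, Deptor, Inpp4b, Pik3c2a and Prkag1. With both KO replicate 3 libraries left out all 21 kept their KO call.

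Among 8 further mTOR complex genes 3 rose and 2 fell in each genotype. Deptor, an inhibitory subunit of both complexes, fell by 1.22 (SE 0.114, adjusted p = 9.39e-07) in WT and by 1.73 (SE 0.109, adjusted p = 2.45e-08) in KO, from 6.63 and 9.85 CPM to 2.82 and 2.93. Prr5, a complex 2 subunit, fell by 0.40 and 0.54, and Mlst8, a subunit of both complexes, rose by 0.35 and 0.40 (largest adjusted p = 0.000939). The remaining genes of the TSC group both fell: Tbc1d7, the third TSC subunit, by 0.24 in WT (adjusted p = 0.0116) and 0.17 in KO (0.0474), and the Rheb homologue Rhebl1 by 0.40 (0.00493) and 0.28 (0.0278). The Tbc1d7 call in WT was lost without WT_JQ1 replicate 1 (adjusted p = 0.0847). In KO it was lost with the replicate block (0.0544) and in 11 further alternatives, up to 0.158 without KO_JQ1 replicate 2. The Rhebl1 call in KO was lost without KO_DMSO replicate 1 or 3 (0.0828 and 0.0781), KO_JQ1 replicate 1 or 2 (0.0591 and 0.149) or the WT libraries (0.0627).

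Of 11 other PI3K subunit genes, 4 rose and 2 fell in each genotype. Pik3c2a, a class II catalytic gene, rose by 0.71 in WT and 0.81 in KO (adjusted p = 2.63e-06 and 7.08e-07), and Pik3r3, a regulatory subunit gene, by 0.45 and 0.47 (3.36e-05 and 1.96e-05). Of 13 effectors and phosphatases, 5 rose and 2 fell. Pdpk1, the kinase that activates AKT, rose by 0.47 and 0.38. The genes of both phosphatases that act on a lipid made from PIP3 moved apart, as Inpp4a rose by 0.59 and 0.49 while Inpp4b fell by 1.47 in WT and fell by 1.09 in KO, in WT from a mean of 4.01 CPM in WT to 1.48.

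Of 11 receptors and adaptors, 5 rose and 1 fell in WT and 2 rose and 1 fell in KO. The growth factor receptor gene Fgfr1 rose by 0.44 and 0.39, and the adaptor gene Gab2 fell by 0.24 and 0.27. Of 29 amino acid sensing genes, 12 rose and 1 fell in WT and 15 rose and 2 fell in KO. The sestrin genes Sesn2 (0.67 and 0.58) and Sesn3 (0.63 and 0.61), whose proteins restrain complex 1, rose, and the Rag GTPase gene Rragd fell by 0.48 and 0.50. Of 15 energy and stress genes, 6 rose and 4 fell in WT and 7 rose and 4 fell in KO, with the AMPK subunit genes Prkag1 (0.80 and 0.89) and Prkaa1 (0.72 and 0.77) among those that rose.

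Of 13 other translation outputs, 9 rose and 2 fell in WT and 8 rose and 2 fell in KO. The elongation factor gene Eef2 rose by 0.53 and 0.40. Eif4ebp1, the relative of Eif4ebp2, went the other way from it, and fell by 1.06 (adjusted p = 3.81e-06) and 0.92 (9.06e-06), from 4.77 CPM to 2.35 in WT. Of 12 autophagy and transcription outputs, 5 rose and 3 fell in each genotype, and the transcription factor genes Foxo1 (0.71 and 0.72) and Foxo3 (0.59 and 0.49), which AKT holds out of the nucleus, were among those that rose.

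**Figure D4:**
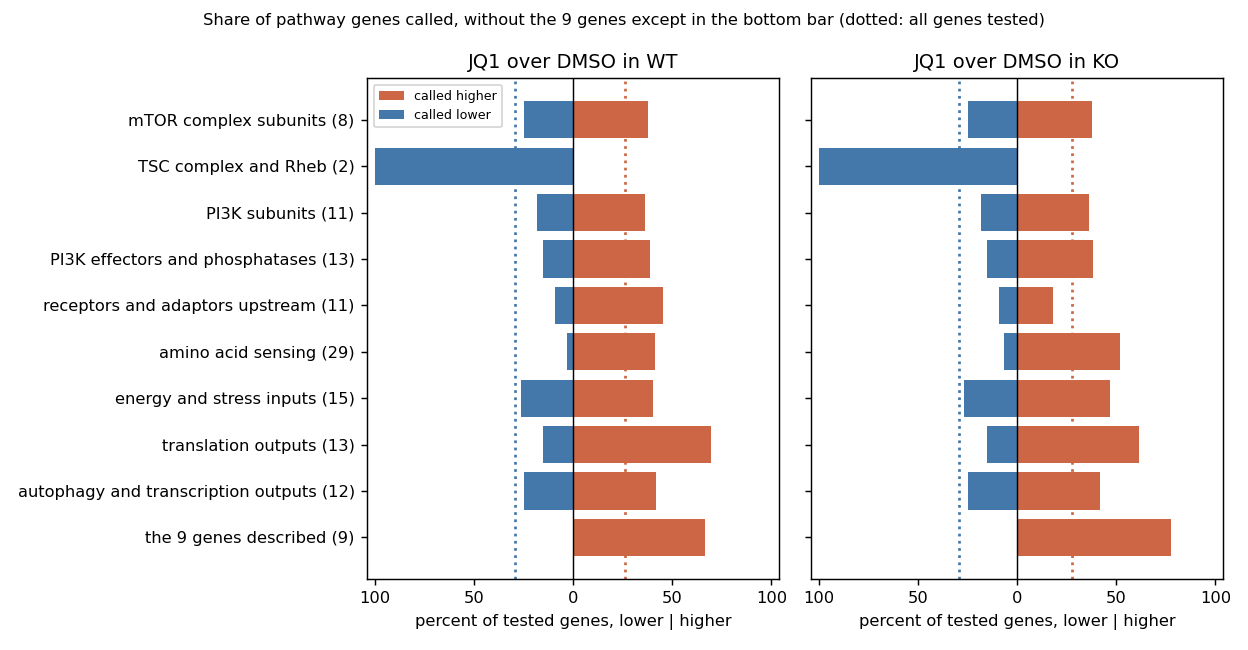
Percent of tested genes of each pathway list, without the 9 genes, called higher (right) or lower (left) under JQ1 in WT and KO, with list sizes in brackets, the 9 genes in the bottom bar and dotted lines at the shares over all genes. The bottom bar shows 6 of 9 and 7 of 9 called higher and 0 lower under TMM scaling, which under spike-in scaling became 0 and 1.

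Between genotypes, 10 of the 114 were higher and 9 lower in KO in DMSO, and 3 and 11 in JQ1, where 7.21% and 7.76% of all genes were called in DMSO and 4.85% and 4.13% in JQ1. The genes named here are part of these calls, and most of the 11 lower in JQ1 are not named. In JQ1, 3 of 11 receptors and adaptors and 3 of 11 other PI3K subunit genes were lower, and 0 of either list were higher. The regulatory subunit gene Pik3r3 fell in KO in both treatments, by 0.50 (adjusted p = 0.000469) in DMSO and 0.48 (0.00102) in JQ1, from 81.6 to 57.5 CPM and from 111.5 to 79.8. Pik3c2a fell by 0.42 in DMSO (adjusted p = 0.00392). Sgk1, a kinase activated through complex 2, rose by 0.30 (0.00804) in DMSO and 0.52 (0.000713) in JQ1. In DMSO Deptor rose by 0.57 (0.00383), Akt1s1, the complex 1 inhibitor PRAS40, by 0.26 (0.00867) and the autophagy gene Atg13 by 0.18 (0.0128), and the kinase gene Rps6ka3 fell by 0.27 (0.00683). Spike-in scaling turned Akt1s1, Deptor, Atg13 and Sgk1 negative in DMSO. In JQ1 Deptor was 0.07 (adjusted p = 0.78), not called. The others were called in JQ1 in the same direction, Atg13 at 0.21 (0.00894), Akt1s1 at 0.20 (0.042), Pik3c2a at -0.32 (0.0154) and Rps6ka3 at -0.22 (0.0216). Under spike-in scaling all 6 calls in JQ1 of the named genes were lost, those of Pik3r3 (-0.58) and Sgk1 (0.42) among them. The Atg13 call was also lost without WT_JQ1 replicate 1 (0.0539). The calls of Pik3c2a and Rps6ka3 were lost without WT_JQ1 replicate 1 (0.0644 and 0.0659) or 2 (0.0811 and 0.0943) or KO_JQ1 replicate 1 (0.0506 and 0.0879) or 2 (0.0641 and 0.0526). That of Akt1s1 was lost without each of these 4 libraries (0.11 to 0.161), WT_DMSO replicate 1 or 2 (0.0556 and 0.0564) or KO_DMSO replicate 1 (0.0543). With only the 2 groups compared in the fit, Akt1s1 (0.0869) and Pik3c2a (0.0569) were also lost.

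The genes whose level followed a member most closely over the 12 libraries were taken from 10612 genes by Pearson's r of log2 CPM, as a description, since the libraries share 4 groups and their scaling. Pik3cb was most like BC026590 (r = 0.997) and Gxylt1 (0.996), Tsc2 most like Hyou1 (0.992) and Snd1 (0.991), and Mtor most like Polr1a (0.988) and Trrap (0.971). Tsc1 was most like Pacs2 (0.936) and Gnb1l (0.894).

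**Figure D5:**
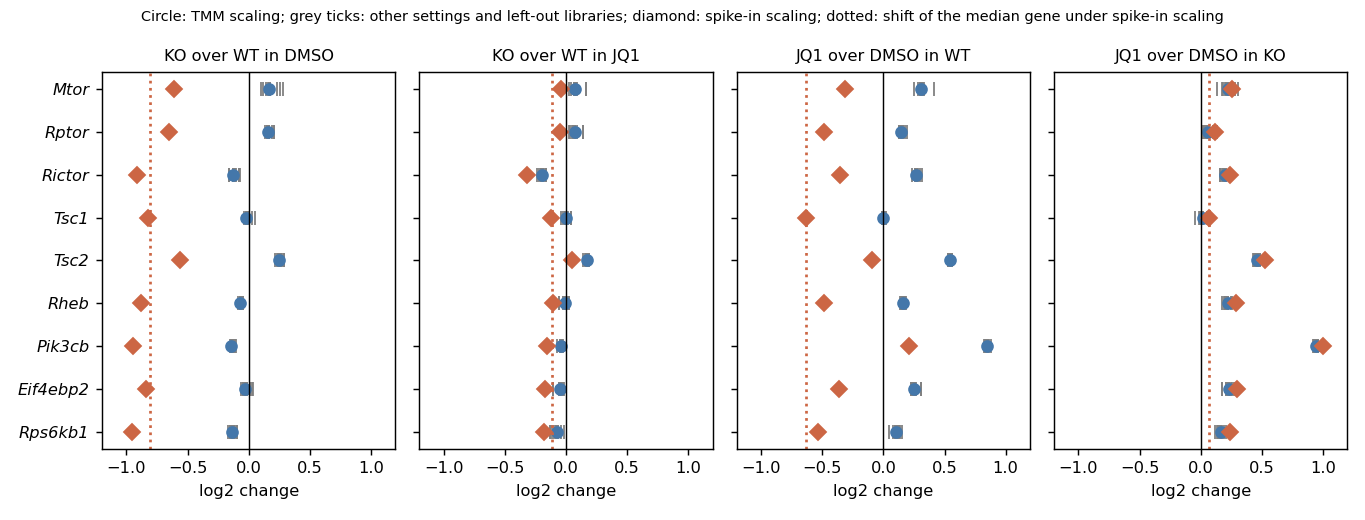
Log2 change of the 9 genes (y axis) in 4 comparisons under TMM scaling (circles), other settings and left-out libraries (grey ticks) and ERCC spike-in scaling (diamonds), with a dotted line at the shift of the median gene under spike-in scaling. In JQ1 over DMSO in WT the diamonds lie at or below 0.21, and in JQ1 over DMSO in KO they lie beside the circles.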

How the data were processed

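RNA was sequenced in cultured mouse cortical neurons. The deposited gene counts were made by the authors with TopHat2 2.1.0, SAMtools 0.1.19 and HTSeq 0.6.1 on mm9, per the submitters' processing notes. The authors' deposited table for KO over WT gives a mean signal, log2 change, Wald score and p-value per gene, and only its values for named genes are quoted. The table with 12 of 18 samples was fitted in R 4.3.3 with edgeR 4.0.16 (filterByExpr at a minimum count of 10, TMM factors 0.964 to 1.04, 1 mean per group, 8 residual degrees of freedom), and an adjusted p under 0.05 over 15433 genes was a call. The method was tested on simulated data. Alternatives were DESeq2 1.42.0, limma-voom (limma 3.58.1), ERCC and size-factor scaling, other filters, a stricter threshold, a replicate block, the compared groups alone and left-out libraries. Replicate numbers were taken to pair libraries where every same-number correlation of deviations from group means passed 0.1. That held only for JQ1 over DMSO in KO (0.212 to 0.287), while in WT the correlations ran from 0.0941 to 0.158. In each genotype all 3 JQ1 libraries correlated best with the DMSO library of their own number. The replicate block gave each number 1 effect shared by both genotypes. No fit paired libraries within a genotype, so the p-values of JQ1 over DMSO do not use that pairing. The members and lists were chosen with earlier results of these data known. From each list up to 3 called genes of smallest adjusted p could be named, and not all were. The values of 1 listed gene are not reported here.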

Additional observations from a re-analysis of the deposited data

How the results depend on the processing

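The number of the 9 genes called depended most on scaling. Under ERCC spike-in scaling it was 7 for KO over WT in DMSO (all lower), 0 for KO over WT in JQ1, 0 for JQ1 over DMSO in WT and 1 for JQ1 over DMSO in KO, with reversed log2 values for Rptor (-0.65) and Tsc2 (-0.56) between genotypes in DMSO and for Mtor (-0.31), Rictor (-0.36), Tsc2 (-0.0905), Rheb (-0.49) and Eif4ebp2 (-0.37) under JQ1 in WT. Estimates not called under TMM that also turned negative were those of Mtor (-0.61) between genotypes in DMSO, Mtor (-0.04) and Rptor (-0.05) between genotypes in JQ1, and Rptor (-0.49) and Rps6kb1 (-0.53) under JQ1 in WT. Among the other pathway genes named it reversed Akt1s1 (-0.56), Atg13 (-0.62), Deptor (-0.21) and Sgk1 (-0.53) between genotypes in DMSO, and Eef2 (-0.11), Fgfr1 (-0.19), Foxo3 (-0.045), Inpp4a (-0.048), Mlst8 (-0.28), Pdpk1 (-0.16) and Pik3r3 (-0.19) under JQ1 in WT. This scaling called 4 genes higher and 11990 lower in KO in DMSO over the whole table. The cause was not tested.

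For KO over WT in DMSO the main count of 1 became 3 without both KO replicate 3 libraries, 2 in a fit of the 6 DMSO libraries and 1 to 2 when 1 library was left out. For KO over WT in JQ1 the count of 1 became 0 at an adjusted p under 0.01 and in a fit of the 6 JQ1 libraries, 2 at a minimum count of 30, with DESeq2 and with limma-voom, and 0 to 1 when 1 library was left out. For JQ1 over DMSO, leaving out 1 library gave 6 to 7 in WT and 4 to 7 in KO. With the replicate block, shared by both genotypes, the counts were 1, 1, 6 and 6. In JQ1 over DMSO in KO that block changed no other call of the 9 genes than that of Mtor. The Tsc2 call in DMSO, the 6 calls in WT and those of Pik3cb, Tsc2 and Rheb in KO were kept in every alternative run at the same threshold except spike-in scaling, and at an adjusted p under 0.01 the counts were 1, 0, 5 and 5, Rheb being the one lost in WT. The 9 genes had at least 943 counts in each library.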
